A study of Mus musculus with 8 samples.

Results

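The genes described here are 41 genes of the presynaptic vesicle cycle and the active zone, measured in the cerebral cortex of mice of 2 strains at 2 ages. They were taken by gene symbol from the table of log2 signals, on a list drawn up with earlier results of these data known, and all 41 were found, on 109 of the 45037 probe sets tested. A probe set is a group of short array probes that report 1 transcript. Of the 41 genes, 8 had 1 probe set and 33 had several, up to 7 for *Dnm3*, and the value of a gene is that of its brightest probe set unless another is named. RNA came from whole cortex of untreated male mice of the senescence-resistant control strain SAMR1 and of the senescence-accelerated strain SAMP8, at 16 weeks and at 1 year, with 2 arrays in each of the 4 groups. The SAMP8 strain is an inbred line kept for its early decline, not a single-gene model, and SAMR1 is a related line and not its otherwise identical parent, so every strain difference holds whatever else separates the lines. SAMP8 samples carry SAMR8 as their genotype label, and their titles set the group. Physiological aging is the change from 16 weeks to 1 year in SAMR1 and accelerated aging that in SAMP8, while early events are the difference of SAMP8 from SAMR1 at 16 weeks and late events that at 1 year. The methods count as many mice at each age as a group has arrays, while the labels tie no array to an animal, so separate mice behind the 2 arrays of a group are likely but not stated, and a p-value reflects the spread of these arrays, which may be partly technical. In tissue RNA, fewer cells or synapses of a type and less RNA in each cell cannot be told apart.

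At a nerve terminal, synaptic vesicles are held in a reserve by synapsins, filled with transmitter by transporters, docked at the active zone by large scaffold proteins, and fused with the membrane when calcium binds a synaptotagmin and the SNARE proteins of vesicle and membrane zip together. The SNAREs are then pulled apart by NSF and its adaptors, and the membrane is taken back by endocytosis, in which dynamin cuts the new vesicle free. The proteins act in the terminal, often far from the cell body, while array signals come from their RNA, so the values below say nothing of protein or of synapse number.

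The members were well measured: 95 of the 109 probe sets, and the brightest probe sets of 40 of the 41 genes, lay above 4.35, the median log2 signal of all probe sets, with *Sv2c* below it. The 8 arrays were close to each other, with medians from 4.32 to 4.36, correlations of 0.995 to 0.998 within groups and of 0.99 to 0.996 between groups. The markers of neurons were bright on all arrays, with none of 14 below the median signal. Replicate 1 of SAMR1 at 16 weeks stood apart in markers of regions next to the cortex. Its signal of *Drd1*, a dopamine receptor gene of the striatum, was 6.7 against 8.07 to 8.57 on the other 7 arrays, and its signal of *Slc17a6*, a glutamate transporter gene of the thalamus, was 8.04 against 6.37 to 7.05. *Ttr*, a marker of the choroid plexus, was at 7.81, 8.45 and 8.29 on 3 of the 4 arrays at 16 weeks, and at 11.35 to 12.12 on that array and on all 4 arrays at 1 year. Over 7 choroid plexus markers the median log2 difference with age was 0.46 in SAMR1 and 0.13 in SAMP8. In SAMP8 the marker *Kl* was at 3.04 and 3.16 and then at 3.79 and 3.27. *Kcnj13*, another of the 7, was at 4.11 and 4.07 and then at 4.37 and 4.03 there. Replicate 1 of SAMP8 at 16 weeks and replicate 2 of SAMP8 at 1 year stood apart in markers of the olfactory bulb, with *Cdhr1*, a cadherin gene of its mitral cells, at 6.87 and 7.23 against 4.63 to 5.26 on the other 6 arrays. Of 7 hypothalamus markers, the neuropeptide genes *Avp* and *Pmch* stood apart on both arrays of SAMR1 at 16 weeks. *Avp* was at 4.96 and 6.53 there against 3.29 to 3.61 on the other 6 arrays, and *Pmch* at 7.21 and 4.93 against 3.56 to 3.76. That group enters both physiological aging and early events. The shifts lay along age, along 1 group or along single arrays, and their part in the results below was not tested.

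With age, members moved in both directions. In physiological aging, 16 of the 109 probe sets, of 14 genes, passed an adjusted p of 0.05 in limma, 8 higher and 8 lower at 1 year. That is 14.7% of the members' probe sets, against 5.48% of all probe sets tested, 2.63% higher and 2.85% lower. In accelerated aging, 16 probe sets of 15 genes passed, 7 higher and 9 lower, against 5.07% of all probe sets, 2.26% higher and 2.8% lower. Over all 109 probe sets the median log2 difference was −0.005 in SAMR1 and −0.05 in SAMP8, beside medians of −0.005 and 0 over all probe sets.

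Brightest and further probe sets of the genes were also counted apart. Of the 41 brightest probe sets, 1 rose and 5 fell in physiological aging, and 0 rose and 6 fell in accelerated aging, with medians of −0.055 and −0.105. Among the brightest probe sets of all 19761 genes, 1.39% rose and 3.78% fell in physiological aging and 1.41% and 3.68% in accelerated aging, with medians of −0.025 in both. Of the members' 68 further probe sets, 7 rose and 3 fell in each strain, with medians of 0.013 and −0.015. Among all 16348 such probe sets, 4.18% rose and 2.44% fell in physiological aging, and 2.82% and 2.86% in accelerated aging. The difference in direction between brightest and further probe sets of the members was not tested. No gene had 1 probe set called higher and another called lower in the same comparison.

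**Figure D1:**
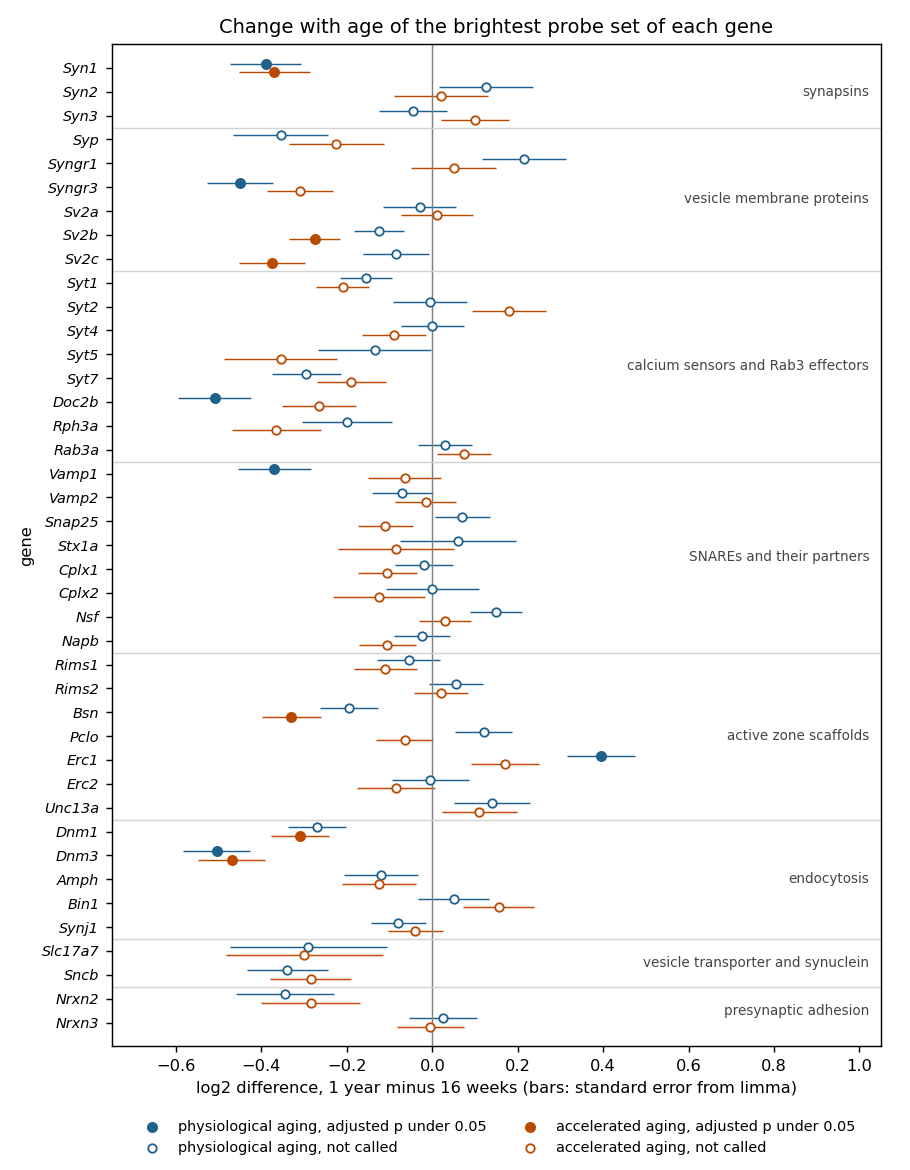
Log2 difference between 1 year and 16 weeks for the brightest probe set of each of the 41 genes, grouped by role, with the standard error from limma; blue is SAMR1, orange is SAMP8, and filled points passed an adjusted p of 0.05. Filled points lie left of 0 except that of *Erc1* in SAMR1, at 0.395.

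These counts leaned on single arrays, since each group had 2. In physiological aging, 14 member probe sets passed without either SAMP8 array at 16 weeks, 8 without either SAMP8 array at 1 year, 25 and 11 without replicate 1 and 2 of SAMR1 at 16 weeks, and 2 and 1 without replicate 1 and 2 of SAMR1 at 1 year. In accelerated aging, 24 passed without either SAMR1 array at 16 weeks, 6 without either SAMR1 array at 1 year, 6 and 0 without replicate 1 and 2 of SAMP8 at 16 weeks, and 0 without either SAMP8 array at 1 year. Replicate 1 of SAMR1 at 16 weeks stood apart in markers of the striatum and thalamus. Without it, no member call of physiological aging changed direction, though some of the calls no longer passed. The log2 differences of accelerated aging do not use that array, so leaving it out could not change their direction. *Avp* and *Pmch* were high on both arrays of SAMR1 at 16 weeks, so leaving out replicate 1 does not remove the shift in hypothalamus markers. Without the SAMP8 arrays that stood apart in olfactory bulb markers, 14 and 8 of the 16 calls of physiological aging and 6 and 0 of the 16 of accelerated aging remained, in the order 16 weeks and 1 year.

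Of the probe sets called in both strains, 6 rose and 2 fell. Of the 8 that rose in SAMR1 and the 7 that rose in SAMP8, 6 were shared, or 75% and 85.7%: probe sets of *Snap25*, *Syt1*, *Syt4*, *Nrxn3* and 2 of *Napb*. Of the 8 and 9 that fell, 2 were shared, or 25% and 22.2%, the brightest probe sets of *Syn1* and *Dnm3*. Over all probe sets tested, the shared part was 38.8% and 45% of the rises and 36.6% and 37.2% of the falls. The 2 age comparisons share no array, but they share the normalisation and the estimate of the spread. Across the 109 probe sets, which are not independent replicates, the age changes of the strains correlated at r = 0.892, and 85 had the same sign in both. Over all 45037 probe sets r was 0.646, and 31547 had the same sign. Of the 109, 95 lay above the median signal of all probe sets, so the 2 r values come from sets of unlike brightness.

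**Figure D2:**
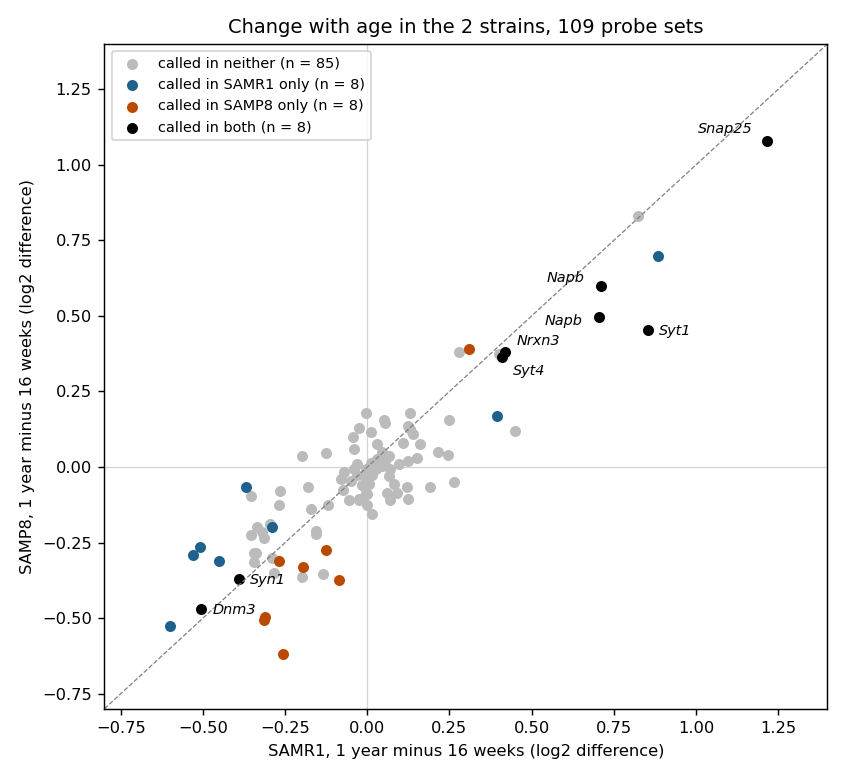
Log2 difference between 1 year and 16 weeks in SAMR1 (horizontal) and in SAMP8 (vertical) for the 109 probe sets, with the line of equal change dashed and the 8 probe sets that passed in both strains in black. The 6 black points at the upper right include *Snap25* at 1.215 and 1.08, and the 2 at the lower left are *Syn1* and *Dnm3*.

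No member passed the test of a strain difference in the age change by limma, against 0.00222% of all probe sets, and 6 member probe sets were below an unadjusted p of 0.05, or 5.5% against 6.92% of all. The smallest p among members was that of *Syt1* on 1421990_PM_at, whose rise was 0.40 smaller in SAMP8 (standard error 0.0926, adjusted p = 0.392). A call in 1 strain and not in the other therefore does not mark a difference between the strains.

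The promoters of the 2 genes whose brightest probe set fell in both strains are shown because their sequences differ in letters known from neuronal promoters. *Unc13a*, whose only probe set was not called in any comparison, is shown beside them because it shares 1 of these motifs with *Syn1*. The windows run from 250 bases before to 50 bases after the gene's start in RefSeq on GRCm38.p6, which held such windows for 30 of the 41 members. Capitals mark TTCAGCACC, the left part of the element RE1 that the repressor REST binds, TGACGTCA, the cAMP response element, and GGGCGG, the GC box bound by Sp1 and related factors, each searched on both strands with no overlap between matches here.
Syn1 promoter, chrX:20920869-20921168, minus strand: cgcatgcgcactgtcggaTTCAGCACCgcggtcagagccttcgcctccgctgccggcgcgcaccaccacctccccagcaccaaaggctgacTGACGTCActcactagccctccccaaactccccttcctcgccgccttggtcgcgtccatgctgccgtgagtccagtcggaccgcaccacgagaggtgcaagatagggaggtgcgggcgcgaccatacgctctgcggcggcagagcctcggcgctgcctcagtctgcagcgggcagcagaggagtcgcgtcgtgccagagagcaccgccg
Dnm3 promoter, chr1:162477985-162478284, minus strand: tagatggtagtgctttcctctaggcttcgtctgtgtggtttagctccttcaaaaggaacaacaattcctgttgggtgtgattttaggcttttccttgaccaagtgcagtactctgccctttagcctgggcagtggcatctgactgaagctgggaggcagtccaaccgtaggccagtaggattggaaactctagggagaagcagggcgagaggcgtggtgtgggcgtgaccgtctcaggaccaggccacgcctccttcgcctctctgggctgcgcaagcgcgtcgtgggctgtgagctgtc
Unc13a promoter, chr8:71671708-71672007, minus strand: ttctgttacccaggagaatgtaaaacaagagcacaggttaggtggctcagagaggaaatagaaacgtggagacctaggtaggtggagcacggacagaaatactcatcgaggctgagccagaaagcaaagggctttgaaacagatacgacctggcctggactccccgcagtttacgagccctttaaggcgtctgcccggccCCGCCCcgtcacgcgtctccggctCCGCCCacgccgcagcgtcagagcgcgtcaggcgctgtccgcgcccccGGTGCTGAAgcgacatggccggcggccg
The window of *Syn1* held the RE1 part and the cAMP response element, that of *Unc13a* held the RE1 part and 2 GC boxes, and that of *Dnm3* held none of the 3 motifs. Over all 32851 windows of the RefSeq table, the RE1 part was found in 0.371%, the cAMP response element in 1.79% and the GC box in 35.7%. Among the members with a window, the RE1 part was in 2 genes, the cAMP response element in 1 and the GC box in 23 of 30, or, by window, in 2, 1 and 24 of their 42 windows. *Syn1* fell and *Unc13a* was not called, so the 2 genes with the shared RE1 part did not have the same call.

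Synapsins, which tie vesicles to each other and to actin, were represented by 3 genes, and *Syn1* was the member that fell with age in both strains. On 1451484_PM_a_at, the only *Syn1* probe set, the log2 signal was 8.95 and 9.14 in SAMR1 at 16 weeks, 8.66 and 8.65 at 1 year, 9.06 and 9.14 in SAMP8 at 16 weeks, and 8.66 and 8.80 at 1 year. Both arrays at 1 year lay below both arrays at 16 weeks in each strain. The log2 difference was −0.39 in SAMR1, a fold of 0.763 (standard error 0.0832, adjusted p = 0.036), and −0.37 in SAMP8, a fold of 0.774 (adjusted p = 0.0432). *Syn2*, the second synapsin gene, had 6 probe sets, of which the brightest was not called (0.125 and 0.02), and the 4th brightest, 1435511_PM_at, fell in physiological aging from 8.16 and 8.23 to 7.88 and 7.93 (−0.29, standard error 0.0671, adjusted p = 0.0456). That probe set was at 8.05 and 8.15 and then at 7.87 and 7.93 in SAMP8, a log2 difference of −0.20 that did not pass (adjusted p = 0.12). None of the 3 probe sets of *Syn3* was called.

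Among the 11 probe sets of the 6 genes of vesicle membrane proteins, none rose with age. In physiological aging 1 fell and in accelerated aging 4 fell, beside 2.85% and 2.8% of all probe sets tested. No member passed the test of a strain difference in the age change, so these counts do not mark a difference between the strains. The median log2 difference over the 11 probe sets was −0.085 in SAMR1 and −0.225 in SAMP8, beside −0.005 and 0 over all probe sets. *Syngr3* encodes a synaptogyrin, a protein that spans the vesicle membrane several times. Its brightest probe set, 1416098_PM_at, was at 7.99 and 8.06 in SAMR1 at 16 weeks, 7.48 and 7.67 at 1 year, 8.09 and 8.05 in SAMP8 at 16 weeks, and 7.74 and 7.78 at 1 year. The groups of different age did not overlap in either strain, and the fall passed in SAMR1 (−0.45, standard error 0.0766, adjusted p = 0.0191) and missed the threshold in SAMP8 (−0.31, adjusted p = 0.055). Its dimmer probe set, 1448216_PM_at, fell in SAMP8 from 5.15 and 5.12 to 4.71 and 4.57 (−0.495, standard error 0.0829, adjusted p = 0.0209), and in SAMR1 it was at 4.79 and 4.98 and then at 4.54 and 4.61 (−0.31, adjusted p = 0.066).

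*Syngr1*, the gene of the related synaptogyrin 1, had its largest change on its 2nd probe set, 1419289_PM_a_at, which fell in SAMP8 from 6.27 and 5.98 to 5.41 and 5.60 (−0.62, standard error 0.117, adjusted p = 0.0276). In SAMR1 that probe set was at 5.96 and 5.72 and then at 5.60 and 5.57 (−0.255, adjusted p = 0.23), while its brightest probe set was not called in either strain (0.215 and 0.05). The SV2 proteins are vesicle glycoproteins that resemble transporters. *Sv2b* fell on 1434800_PM_at, its brightest probe set, in SAMP8 from 9.91 and 9.96 to 9.68 and 9.64 (−0.275, standard error 0.0595, adjusted p = 0.0388), and was at 9.83 and 9.84 and then at 9.70 and 9.72 in SAMR1 (−0.125, adjusted p = 0.25). *Sv2c*, the dimmest member, fell in SAMP8 from 3.92 and 3.91 to 3.47 and 3.61 (−0.375, standard error 0.0775, adjusted p = 0.0349), and was at 3.66 and 3.76 and then at 3.69 and 3.56 in SAMR1. *Sv2a*, the isoform found at nearly all synapses, was not called (−0.03 and 0.01).

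*Syp* encodes synaptophysin, a protein widely used to stain presynaptic terminals, and it passed in no comparison. On 1448280_PM_at its log2 signal was 9.14 and 9.47 in SAMR1 at 16 weeks, 8.93 and 8.97 at 1 year, 9.20 and 9.38 in SAMP8 at 16 weeks, and 9.01 and 9.12 at 1 year. The arrays at 1 year lay below those at 16 weeks in both strains, as did those of 32 and 42 of the 109 member probe sets in SAMR1 and SAMP8, or 29.4% and 38.5% against 27.4% and 26.9% of all probe sets tested. Of the 41 brightest probe sets of members 17 and 24 had such arrays, against 32.1% and 32% of the brightest probe sets of all genes. The log2 difference of −0.355 in SAMR1 (standard error 0.111, adjusted p = 0.099) and of −0.225 in SAMP8 (adjusted p = 0.27) missed the threshold, and its second probe set, 1456249_PM_x_at, was at 0.01 and 0.115.

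**Figure D3:**
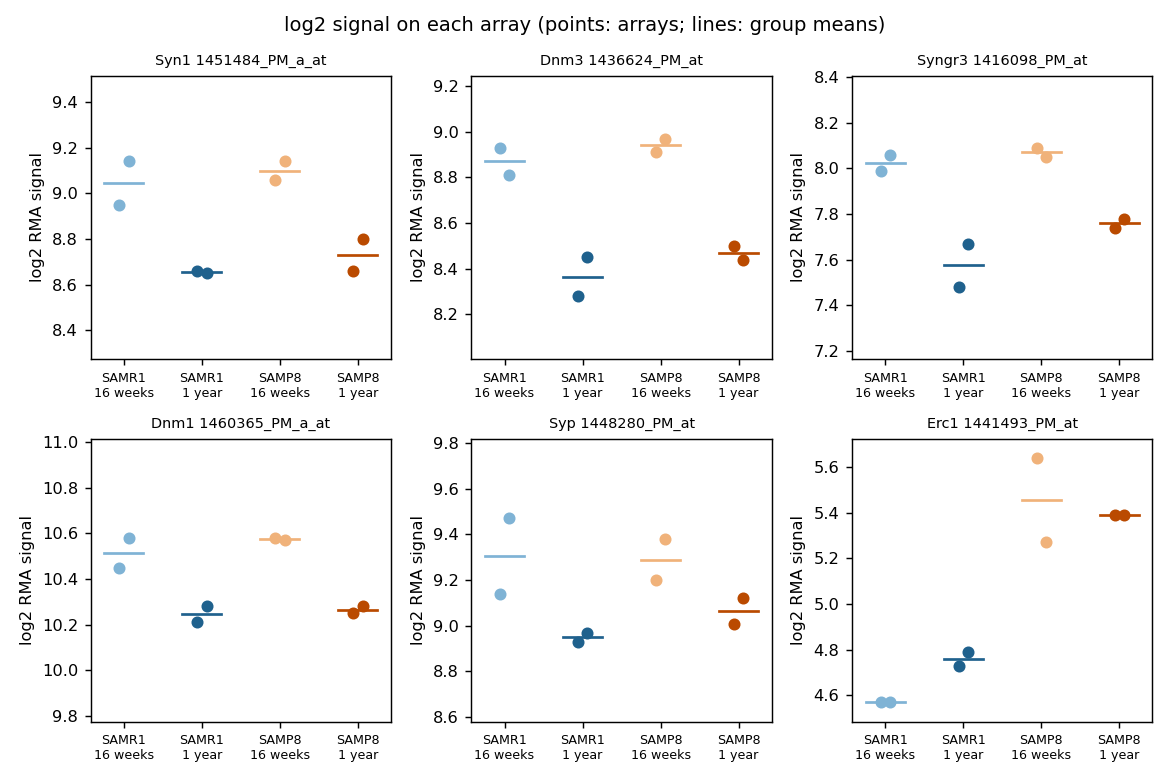
Log2 signal of 6 probe sets on each array (points) with the group mean (line); each panel spans the same number of log2 units and the axes do not start at 0. The 2 arrays at 1 year lie below the 2 at 16 weeks in each strain for *Syn1*, *Dnm3*, *Syngr3*, *Dnm1* and *Syp*, and for *Erc1* the SAMP8 arrays lie above the SAMR1 arrays at both ages.

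Among the calcium sensors and Rab3 effectors, the rises lay on dimmer probe sets of 3 synaptotagmin genes and the 1 fall on the brightest probe set of *Doc2b*. *Syt1*, the main calcium sensor of fast release, had 4 probe sets. On the brightest, 1433884_PM_at, the log2 signal was 11.02 and 11.10 in SAMR1 at 16 weeks, 10.89 and 10.92 at 1 year, 11.18 and 11.16 in SAMP8 at 16 weeks, and 10.94 and 10.98 at 1 year, and the lower values at 1 year did not pass (−0.155 and −0.21, adjusted p = 0.17 and 0.087). On 1421990_PM_at it was 8.03 and 8.08, then 8.92 and 8.90 in SAMR1, and 8.45 and 8.57, then 8.97 and 8.96 in SAMP8. That probe set rose by 0.855 in SAMR1, a fold of 1.81 (standard error 0.0655, adjusted p = 0.00355), and by 0.455 in SAMP8, a fold of 1.37 (adjusted p = 0.0164). It was the only call of physiological aging that remained whichever array was left out.

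A further *Syt1* probe set, 1431191_PM_a_at, rose in SAMR1 from 9.49 and 8.88 to 10.11 and 10.03 (0.885, standard error 0.172, adjusted p = 0.0273), and was at 9.46 and 9.23 and then at 10.11 and 9.98 in SAMP8 (0.70, adjusted p = 0.054). Its arrays at 16 weeks lay far apart within SAMR1, and with a variance trend and robust fit the call ended (adjusted p = 0.0637). The last, 1438282_PM_at, was not called (−0.265 and −0.08). *Syt4*, a synaptotagmin gene induced by neuronal activity, rose on its 2nd probe set, 1415844_PM_at, from 8.30 and 8.20 to 8.62 and 8.70 in SAMR1 (0.41, standard error 0.0688, adjusted p = 0.0184) and from 8.22 and 8.29 to 8.65 and 8.59 in SAMP8 (0.365, adjusted p = 0.0275), with its brightest probe set at 0 and −0.09. *Syt7*, a slow calcium sensor with high affinity, rose in SAMP8 on its 2nd probe set, 1441927_PM_at, from 7.09 and 7.16 to 7.54 and 7.49 (0.39, standard error 0.0745, adjusted p = 0.0281). In SAMR1 the same probe set was at 7.27 and 7.22 and then at 7.64 and 7.47, with a log2 difference of 0.31 that did not pass (adjusted p = 0.0501).

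*Doc2b*, a calcium sensor of spontaneous and asynchronous release, gave the only fall of the group. Its brightest probe set, 1420667_PM_at, was at 6.26 and 6.18 in SAMR1 at 16 weeks, 5.63 and 5.79 at 1 year, 6.04 and 6.15 in SAMP8 at 16 weeks, and 5.91 and 5.75 at 1 year. The fall passed in SAMR1 (−0.51, a fold of 0.702, standard error 0.0858, adjusted p = 0.0185) and not in SAMP8 (−0.265, adjusted p = 0.11). The others of the group were not called: *Syt2* and *Syt5*, further synaptotagmins, were at −0.005 and −0.135 in SAMR1 and at 0.18 and −0.355 in SAMP8. *Rph3a*, the gene of the Rab3 effector rabphilin, was at −0.20 and −0.365, and *Rab3a*, the gene of the vesicle GTPase, was at 0.03 and 0.075 on its brightest probe set, whose suffix x marks probes that may also bind other transcripts. On its other probe set, 1422589_PM_at, *Rab3a* was at 9.18 and 9.42, then 8.98 and 9.05 in SAMR1, and at 9.45 and 9.47, then 9.07 and 9.15 in SAMP8. Both arrays at 1 year lay below both at 16 weeks in each strain, and the differences missed the threshold (−0.285 and −0.35, adjusted p = 0.0893 and 0.0534).

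In the SNARE group, *Vamp1* was the only gene called on its brightest probe set, and the rises of *Snap25* and *Napb* were on dimmer ones. *Snap25*, a SNARE of the plasma membrane, had the largest rise of all members, on 1447763_PM_at. Its log2 signal there was 7.79 and 7.26 in SAMR1 at 16 weeks, 8.72 and 8.76 at 1 year, 7.84 and 7.13 in SAMP8 at 16 weeks, and 8.58 and 8.55 at 1 year. The arrays at 16 weeks lay far apart within each strain, and all of them lay below every array at 1 year. The rise was 1.215 in SAMR1, a fold of 2.32 (standard error 0.223, adjusted p = 0.0232), and 1.08 in SAMP8, a fold of 2.11 (adjusted p = 0.0346), and with a variance trend and robust fit the adjusted p was 0.0606 and 0.0812. The brightest *Snap25* probe set, 1416828_PM_at, the brightest of all members, was at 11.23 and 11.32, then 11.36 and 11.33 in SAMR1, and at 11.44 and 11.50, then 11.38 and 11.34 in SAMP8 (0.07 and −0.11, not called).

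*Napb* encodes beta-SNAP, the brain adaptor through which NSF reaches SNARE complexes, and 2 of its 6 probe sets rose in both strains. The probe set 1427470_PM_s_at was at 7.70 and 7.66 in SAMR1 at 16 weeks, 8.30 and 8.48 at 1 year, 7.95 and 7.92 in SAMP8 at 16 weeks, and 8.51 and 8.56 at 1 year (0.71, standard error 0.0739, adjusted p = 0.00653, and 0.60, adjusted p = 0.0126). On 1452444_PM_at the signal went from 7.45 and 7.22 to 8.01 and 8.07 and from 7.76 and 7.57 to 8.16 and 8.16 (0.705, adjusted p = 0.0104, and 0.495, adjusted p = 0.0275). The 3 brighter probe sets of *Napb* were between −0.105 and 0.08 in both strains.

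*Vamp1*, the gene of a vesicle SNARE, fell in SAMR1 on 1421863_PM_at from 8.26 and 8.02 to 7.75 and 7.79 (−0.37, standard error 0.0859, adjusted p = 0.0462), and was at 7.73 and 7.83 and then at 7.70 and 7.73 in SAMP8 (−0.065). The SAMR1 arrays at 16 weeks were thus the high ones, and when each of the 8 arrays was left out in turn the call remained only without replicate 2 of SAMR1 at 16 weeks. *Vamp2*, the gene of the main vesicle SNARE of the forebrain, was at −0.07 and −0.015, *Stx1a*, its plasma membrane partner, at 0.06 and −0.085, and *Nsf* at 0.15 and 0.03. The value of *Stx1a* is from a probe set with the suffix x, as for *Rab3a*. On 1448366_PM_at the *Stx1a* group means were 7.68 and then 7.525 in SAMR1, and 7.75 and then 7.53 in SAMP8. The complexin genes, whose products clamp and then promote fusion, were at −0.02 and −0.105 for *Cplx1* and at 0 and −0.125 for *Cplx2*. None of these 5 genes passed in any comparison on any probe set.

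Of the 17 probe sets of active zone scaffolds, 1 was higher in physiological aging and 2 were lower in accelerated aging, beside the 5.48% and 5.07% of all probe sets called in either direction. *Bsn* encodes bassoon, one of the giant scaffolds. Its brightest probe set, 1436123_PM_at, was at 8.14 and 8.25 in SAMR1 at 16 weeks, 8.01 and 7.99 at 1 year, 8.23 and 8.31 in SAMP8 at 16 weeks, and 7.98 and 7.90 at 1 year. The groups of different age did not overlap in either strain, and the fall passed in SAMP8 (−0.33, standard error 0.0689, adjusted p = 0.0358) but not in SAMR1 (−0.195, adjusted p = 0.13). *Pclo*, the gene of the related scaffold piccolo, fell in SAMP8 on its 2nd probe set, 1455373_PM_at, from 7.56 and 7.74 to 7.19 and 7.10 (−0.505, standard error 0.0825, adjusted p = 0.0197), was at 7.53 and 7.52 and then at 7.14 and 7.28 in SAMR1 (−0.315, adjusted p = 0.063), and was not called on its brightest (0.12 and −0.065).

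*Erc1*, of the ELKS scaffold family that binds RIM proteins, was the only member whose brightest probe set rose. On 1424247_PM_at it was at 6.23 and 6.14 in SAMR1 at 16 weeks, 6.54 and 6.62 at 1 year, 6.31 and 6.49 in SAMP8 at 16 weeks, and 6.60 and 6.54 at 1 year. The rise passed in SAMR1 (0.395, standard error 0.0789, adjusted p = 0.0296) and not in SAMP8 (0.17, adjusted p = 0.24), and another of its probe sets, 1421501_PM_a_at, was at −0.32 and −0.215 without a call. The scaffold genes *Rims1*, *Rims2* and *Erc2* were, on their brightest probe sets, between −0.11 and 0.055 in both strains, and *Unc13a*, the gene of the priming factor Munc13-1, was at 0.14 and 0.11.

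Endocytosis held the other shared fall, in *Dnm3*, a dynamin gene expressed in brain. On its brightest probe set, 1436624_PM_at, the log2 signal was 8.93 and 8.81 in SAMR1 at 16 weeks, 8.28 and 8.45 at 1 year, 8.91 and 8.97 in SAMP8 at 16 weeks, and 8.50 and 8.44 at 1 year. All 4 arrays at 1 year lay below all 4 at 16 weeks. The log2 difference was −0.505 in SAMR1, a fold of 0.705 (standard error 0.0789, adjusted p = 0.0152), and −0.47 in SAMP8, a fold of 0.722 (adjusted p = 0.0209). *Dnm1*, the dynamin gene most abundant at synapses, fell on 1 probe set in each strain. Its brightest, 1460365_PM_a_at, was at 10.45 and 10.58, then 10.21 and 10.28 in SAMR1 (−0.27, adjusted p = 0.057), and at 10.58 and 10.57, then 10.25 and 10.28 in SAMP8 (−0.31, standard error 0.0679, adjusted p = 0.0404).

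The 2nd *Dnm1* probe set, 1427754_PM_a_at, was at 6.37 and 6.80, then 6.12 and 5.85 in SAMR1 (−0.60, standard error 0.137, adjusted p = 0.0437), and at 6.60 and 6.67, then 6.11 and 6.11 in SAMP8 (−0.525, adjusted p = 0.063). Both *Dnm1* probe sets thus had lower signals at 1 year on every array of both strains. *Amph* and *Bin1*, genes of the membrane-bending proteins amphiphysin 1 and 2, and *Synj1*, the gene of the lipid phosphatase that helps shed the clathrin coat, were not called, with brightest probe sets between −0.125 and 0.155.

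The last 2 groups hold 2 genes each. *Slc17a7*, the vesicular glutamate transporter gene of cortical excitatory neurons, was at 6.64 and 7.30 in SAMR1 at 16 weeks, 6.71 and 6.65 at 1 year, 6.91 and 7.19 in SAMP8 at 16 weeks, and 6.77 and 6.73 at 1 year, with differences of −0.29 and −0.30 that were not called (adjusted p = 0.39 and 0.37). *Sncb*, the gene of beta-synuclein, was at 8.54 and 8.79, then 8.33 and 8.32 in SAMR1, and at 8.49 and 8.66, then 8.25 and 8.33 in SAMP8 (−0.34 and −0.285, adjusted p = 0.074 and 0.12). Its arrays at 1 year lay below those at 16 weeks in both strains without passing the test.

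Neurexins are presynaptic adhesion proteins that bind neuroligins across the cleft, and their 2 genes were called in opposite directions. *Nrxn2* fell in SAMR1 on 1455499_PM_at from 5.05 and 5.24 to 4.69 and 4.54 (−0.53, standard error 0.114, adjusted p = 0.0366), was at 5.27 and 4.95 and then at 4.79 and 4.85 in SAMP8 (−0.29, adjusted p = 0.17), and was at −0.345 and −0.285 on its brightest probe set without a call. *Nrxn3* rose on its 4th brightest of 5 probe sets, 1439629_PM_at, from 7.58 and 7.66 to 8.03 and 8.05 in SAMR1 (0.42, standard error 0.0873, adjusted p = 0.0333) and from 7.82 and 7.57 to 8.04 and 8.11 in SAMP8 (0.38, adjusted p = 0.0459). Its 3 brighter probe sets were between −0.075 and 0.11 in both strains.

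Because rises lay on dimmer probe sets, each further probe set was set against the brightest of its gene within the same arrays, a test chosen after these values had been seen. In physiological aging 19 of 68 further probe sets of 11 genes changed unlike the brightest, 17 upward and 2 downward, or 27.9% against 11.4% of the 16348 such probe sets of all genes. In accelerated aging it was 19 of 12 genes, 16 upward and 3 downward, or 27.9% against 10.3% of all. In early and late events it was 0, against 0.966% and 0.685% of all. The shares of members are not those of independent events, since 6 of the 19 in each strain are the further probe sets of *Dnm3* set against 1 falling reference, and 3 of these 6 had signals of at most 4.55 on every array.

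For *Snap25* the dimmer probe set moved 1.145 above the brightest in SAMR1 (standard error 0.243, adjusted p = 0.0211) and 1.19 above it in SAMP8 (adjusted p = 0.0204). For *Syt1* the offsets were 1.04 and 1.01 in SAMR1 and 0.91 and 0.665 in SAMP8 for 1431191_PM_a_at and 1421990_PM_at, and for *Napb* they were 0.735 and 0.73 and then 0.705 and 0.60 for 1427470_PM_s_at and 1452444_PM_at. The largest was that of *Dnm3* on 1438801_PM_at, at 1.33 and 1.30. That probe set was at 6.59 and 5.53 in SAMR1 at 16 weeks, 6.88 and 6.89 at 1 year, 6.09 and 5.49 in SAMP8 at 16 weeks, and 6.70 and 6.54 at 1 year, so its spread at 16 weeks was wide, and alone it was not called (0.825 and 0.83, adjusted p = 0.14 and 0.15). *Syt7*, *Syt4* and *Nrxn3* also had a further probe set above the brightest in both strains, and *Pclo* had 1 below it in both (−0.435 and −0.44). *Doc2b* had such an offset too (0.64 and 0.445), but its further probe set, at 3.97 to 4.41 on the 8 arrays, was near the median signal of all probe sets, and its brightest had the lower signals at 1 year. The second probe set of *Rab3a* lay below the x probe set in SAMP8 (−0.425, adjusted p = 0.0235).

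Such an offset shows that 2 probe sets of a gene changed unequally, not which of them follows the transcript. The labelling kit is given differently in the sample labels, the series text and the methods, so where along each transcript the signal comes from is not settled, and probe positions were not used here. Without replicate 1 and 2 of SAMR1 at 1 year the count of 19 in physiological aging was 1 and 5, and in accelerated aging it was 2 without replicate 2 of SAMP8 at 16 weeks and 0 without either SAMP8 array at 1 year.

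**Figure D4:**
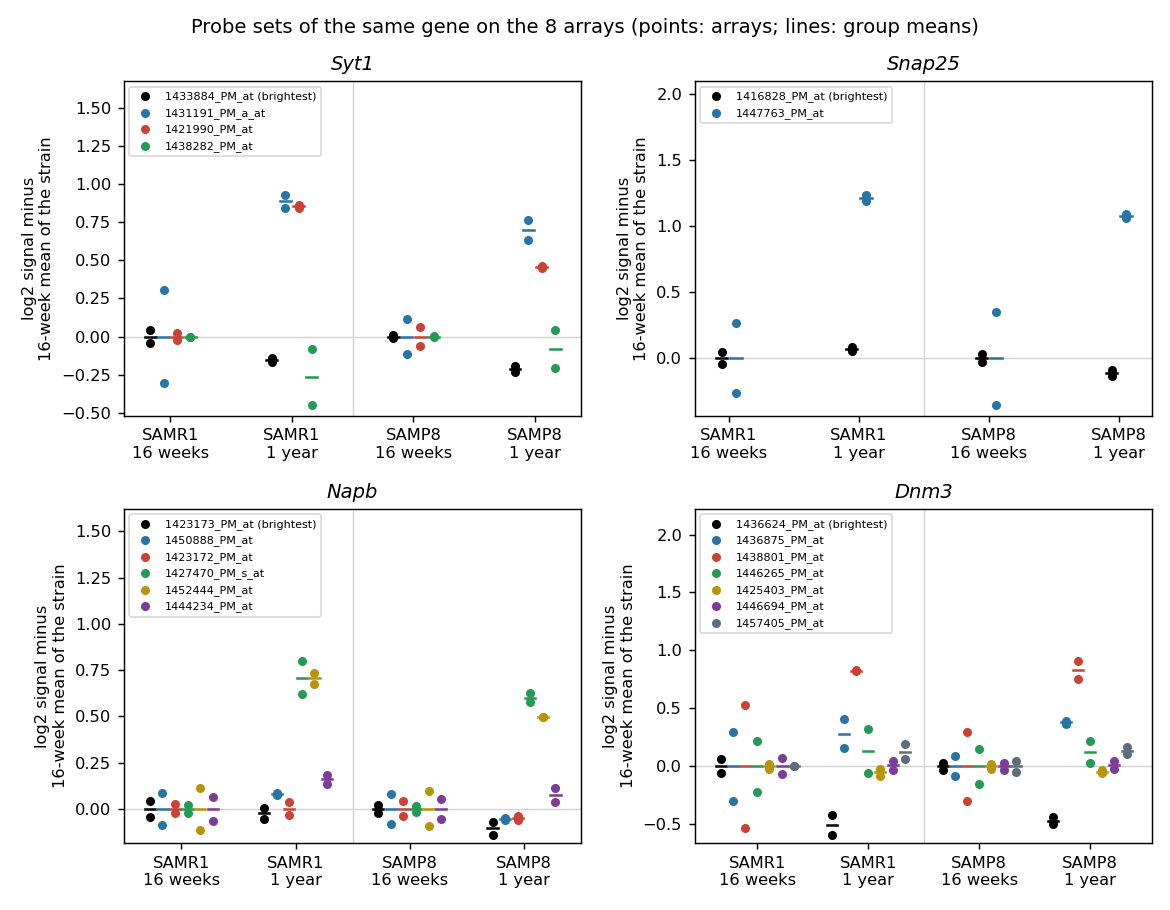
Log2 signal of every probe set of *Syt1*, *Snap25*, *Napb* and *Dnm3* on each array, minus the mean of the same probe set and strain at 16 weeks (points, arrays; lines, group means). In each panel the brightest probe set, in black, stays near 0 or falls at 1 year while 1 or more dimmer probe sets lie above it, up to 1.215 for *Snap25* in SAMR1.

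Between the strains, in early events 2 member probe sets were higher in SAMP8 and 0 lower, or 1.83% against 1.23% of all probe sets tested, and in late events 1 was higher and 0 lower, or 0.917% against 0.688%. At an unadjusted p of 0.05 the counts were 24 and 7, or 22% and 6.42% against 14% and 7.58% of all probe sets. None of the calls was on the brightest probe set of its gene. The median log2 difference over the 109 probe sets was 0.055 at 16 weeks and 0.015 at 1 year, beside 0 over all probe sets at both ages. At 16 weeks 72 of the 109 were above 0, beside 21860 of all 45037 probe sets. The arrays of the strains did not overlap for 30 higher and 15 lower, or 41.3% in all against 37.5% of all probe sets. By direction it was 27.5% higher and 13.8% lower, against 18.4% and 19.1% of all probe sets. This lean towards higher signals in SAMP8 was not tested.

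*Erc1* was the member that differed between the strains at both ages, on 1441493_PM_at, the dimmest of its 4 probe sets. Its log2 signal was 4.57 and 4.57 in SAMR1 at 16 weeks, 4.73 and 4.79 at 1 year, 5.64 and 5.27 in SAMP8 at 16 weeks, and 5.39 and 5.39 at 1 year. All 4 SAMP8 arrays lay above all 4 SAMR1 arrays. SAMP8 was higher by 0.885 at 16 weeks, a fold of 1.85 (standard error 0.107, adjusted p = 0.00737), and by 0.63 at 1 year, a fold of 1.55 (adjusted p = 0.044). The call at 16 weeks remained whichever array was left out, while that at 1 year ended without any 1 of the 4 arrays at 1 year. The other *Erc1* probe sets were between −0.08 and 0.215 at 16 weeks and between −0.01 and 0.125 at 1 year, none of them called.

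*Syt1* was the other call of early events, on the probe set 1421990_PM_at that rose with age in both strains. SAMP8 was higher by 0.455 at 16 weeks (standard error 0.0655, adjusted p = 0.0167) and by 0.055 at 1 year (adjusted p = 0.98). Early events and both age comparisons share arrays at 16 weeks, so the higher start in SAMP8 and the smaller rise there are not separate findings. The call ended without replicate 2 of SAMP8 or replicate 1 of SAMR1 at 16 weeks.

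*Cplx2* had the lowest late-event value, on its brightest probe set 1421477_PM_at, with 10.62 and 10.43 in SAMR1 and 10.05 and 10.02 in SAMP8 at 1 year (−0.49, standard error 0.112, adjusted p = 0.14). At 16 weeks it was at 10.44 and 10.61 in SAMR1 and at 10.30 and 10.02 in SAMP8 (−0.365, adjusted p = 0.18). On this probe set the SAMP8 arrays were thus the lower ones at both ages without passing the test. On 1455672_PM_s_at of *Cplx2* the group means at 1 year were 9.415 in SAMR1 and 9.425 in SAMP8. On 1436383_PM_at they were 7.245 and 7.25, so the lower SAMP8 signal at 1 year was on the brightest probe set alone. *Pclo* had a wide difference at 16 weeks on its 3rd probe set, 1452423_PM_at, with 6.36 and 5.73 in SAMR1 and 6.76 and 6.62 in SAMP8 (0.645, adjusted p = 0.14). The probe sets 1421477_PM_at and 1452423_PM_at were picked out here after their values were seen.

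**Figure D5:**
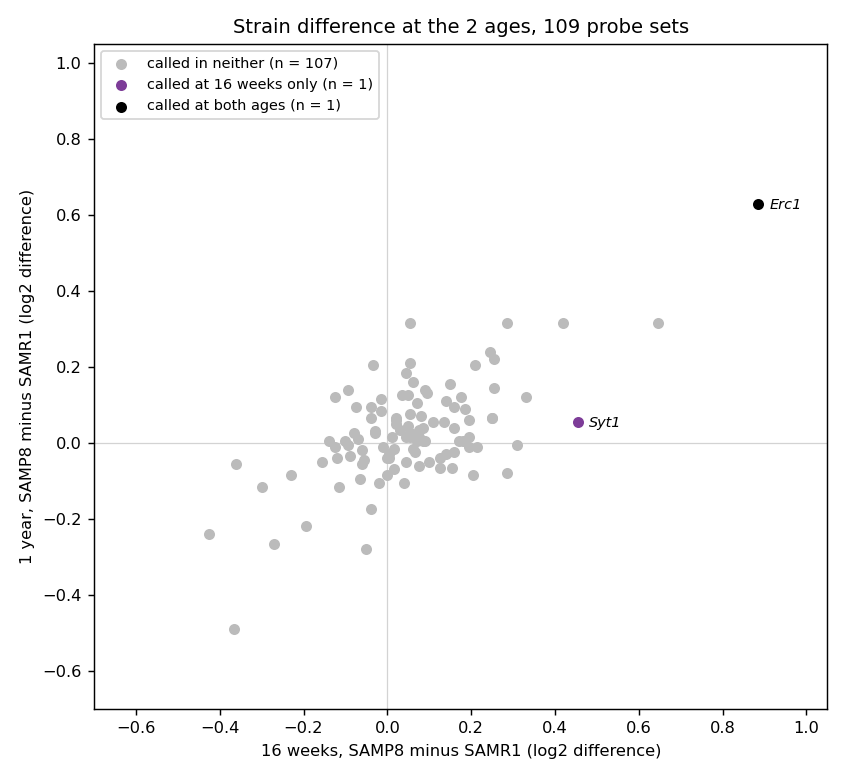
Log2 difference between SAMP8 and SAMR1 at 16 weeks (horizontal) and at 1 year (vertical) for the 109 probe sets; the black point, called at both ages, is *Erc1* at 0.885 and 0.63, and the purple point, called at 16 weeks, is *Syt1* at 0.455 and 0.055. The other 107 probe sets were called at neither age.

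Other genes of the terminal were taken from 4 lists and read on the brightest probe set of each gene. Over the brightest probe sets of all genes, 1.39% rose and 3.78% fell in physiological aging and 1.41% and 3.68% in accelerated aging, so falls outnumbered rises there as well. Of the 32 other vesicle and fusion genes counted here, 0 rose and 2, *Sncg* and *Slc17a6*, fell in physiological aging and 0 were called in accelerated aging, with medians of −0.123 and −0.095. Both were highest on replicate 1 of SAMR1 at 16 weeks, the array that stood apart in striatum and thalamus markers. *Slc17a6*, also a thalamus marker, was at 8.04 there and 7.05 on replicate 2. *Sncg*, which lay below the median signal of all probe sets, was at 4.04 and 3.65. Of 24 other active zone and adhesion genes, 0 rose in either strain and 1 and 4 fell (medians −0.08 and −0.055), of 23 other endocytosis genes 0 rose and 4 and 2 fell (medians −0.145 and −0.21), and of 13 genes of the proton pump that energises vesicle filling 0 rose and 2 and 3 fell (medians −0.055 and −0.115).

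Falls in both strains were those of *Apba1*, the gene of the adaptor Mint1, *Ap2b1*, of the clathrin adaptor AP2, and *Atp6v0b*, of the proton pump. *Atp6v0b* went from 9.48 and 9.45 to 8.80 and 8.78 in SAMR1 and from 9.40 and 9.38 to 8.80 and 8.83 in SAMP8. *Apba1* fell by 0.46 and 0.435, *Ap2b1* by 0.515 and 0.655, and *Atp6v0b* by 0.675 and 0.575 on the log2 scale, with adjusted p from limma between 0.00434 and 0.0316. For each of the 3 genes both arrays at 1 year lay below both at 16 weeks in each strain. In early and late events the 1 call in the 4 lists was that of *Cask*, a scaffold kinase that binds neurexins, higher in SAMP8 by 0.59 at 16 weeks (adjusted p = 0.0202) and by 0.545 at 1 year (adjusted p = 0.0369).

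General neuronal markers also had medians below 0 with age. Of 14 of them, 0 rose and 1, *Thy1*, fell in each strain, with medians of −0.085 and −0.14. Their summed signal, on the log2 scale, was 13.58 to 13.62 in SAMR1 at 16 weeks, 13.52 to 13.56 at 1 year, 13.59 to 13.65 in SAMP8 at 16 weeks, and 13.54 to 13.55 at 1 year, so that the arrays at 1 year lay below those at 16 weeks in both strains. Of 8 cortical excitatory neuron markers 0 fell in SAMR1 and 2 in SAMP8 (medians −0.04 and −0.215), and of 8 inhibitory neuron markers 0 and 1 (medians −0.118 and −0.27). The part of these shifts in the members' falls was not tested.

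In the glial and vascular lists, 1 of 8 astrocyte markers rose and 1 of 8 oligodendrocyte markers fell in SAMR1, and none of the 8, 8, 7 and 6 astrocyte, oligodendrocyte, microglia and endothelial markers was called in SAMP8 with age. Their medians were 0.05, −0.13, 0.025 and −0.135 in SAMR1 and 0.063, −0.023, 0.12 and −0.015 in SAMP8. Of the markers of neighbouring tissue, none of the choroid plexus, striatum, olfactory bulb and hippocampus lists was called with age, while 1 thalamus marker (*Slc17a6*) and 2 hypothalamus markers (*Pmch* and *Avp*) fell in SAMR1. The summed signal of the striatum list was 10.3 to 11.7 in SAMR1 at 16 weeks and 11.4 to 11.8 in the other groups. That of the olfactory bulb list was 7.98 and 8.21 on the 2 SAMP8 arrays that stood apart and 6.61 to 6.83 on the others. Between the strains, 2 oligodendrocyte markers, 1 thalamus and 1 hypothalamus marker were lower and 1 inhibitory neuron marker was higher in SAMP8 at 16 weeks, and 1 microglia marker was higher at 1 year.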

How the data were processed

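Total RNA of cortex was hybridised to MG-430 PM strips. From the scans the authors computed RMA values and deposited them as log2 signals rounded to 2 decimals. RMA, limma and Transcriptome Analysis Console stand in the submitters' processing notes without versions, and the methods give version 4 for the console. Tables of the authors' comparisons, 4 in all, with their own folds and p-values, were not used. Of 45077 probe sets, 40 controls were left out, and dim probe sets were kept. limma 3.58.1 in R 4.3.3 fitted 4 group means to all 8 arrays (4 residual and 4.5 prior degrees of freedom), with Benjamini-Hochberg adjustment over 45037 probe sets. Adjusted p values are from this fit unless another setting is named. Those of the within-gene test are from the same model fitted to the differences of 16348 further probe sets from the brightest, adjusted over these 16348. Precision is limited by how few arrays there were. On simulated data over 45037 probe sets, log2 changes of 0.5 and 1 were recovered for 49% and 94.2% in physiological aging, and for 49.6% and 97.4% in accelerated aging. Each draw changed 200 probe sets and gave the others equal group means, while 2466 and 2283 passed in the real age comparisons. The share of changed probe sets affects the cutoff after adjustment, so these rates need not hold for the real age comparisons.

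Members and gene lists were chosen with earlier results of these data known, and so gave no test of their own. Of the other vesicle and fusion genes, 2 are not reported here and entered no count or median of that list. Named were up to 10 called probe sets in each direction and comparison, *Syt1*, *Bsn* and *Syp*, and the brightest member of each role. The within-gene test (further probe set minus brightest) was added after the data were seen. Gene names came from the signal table, in which the symbol of 64 probe sets had turned into a date. Summed signals of marker lists add linear signals of the brightest probe sets and are given as log2.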

Additional observations from a re-analysis of the deposited data

How the results depend on the processing

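With only the 4 arrays of a comparison fitted, member probe sets called fell to 0 in physiological aging and in early events. They also fell to 0 in all 4 comparisons with an equal-variance t-test on those 4 arrays, after Benjamini-Hochberg adjustment. That t-test was chosen here, and the methods name no t-test. At the study's threshold without adjustment, limma called 40 and 34 in SAMR1 and SAMP8 aging and 24 and 7 in early and late events. It called 6 for the strain difference in the age change. The t-test chosen here called 5 in early and 6 in late events at that threshold. With array weights late events had 2. The median of the members in accelerated aging was −0.105 over brightest probe sets. Set against the mean of the other probe sets of the gene, an alternative added after seeing the data, 10 probe sets differed in accelerated aging. Each array left out in turn gave 1 to 25 and 0 to 24 calls in SAMR1 and SAMP8 aging, 1 to 5 and 0 to 1 in early and late events, and 0 for the strain difference. It gave medians of −0.02 to 0, −0.05 to −0.015, 0.02 to 0.06 and 0.015 to 0.03, and 1 to 20 and 0 to 19 probe sets unlike the brightest. With the replicate number as a block, physiological and accelerated aging had 17 calls each, early events 2 and late events 1; the calls of *Vamp1* (adjusted p = 0.0539) and *Nrxn3* in SAMP8 (adjusted p = 0.0536) ended and no other did. The numbers share no stated source, and arrays of the same number deviated together by correlations of −0.086 to 0.196. Quantile normalisation ended the calls of *Dnm1* (adjusted p = 0.051) and *Syn2* (adjusted p = 0.0507) in SAMR1. Of 594 values for the 35 named calls under the alternatives, 385 stayed past the threshold, 209 did not and 0 changed sign. Many of these settings alter only the spread or the probe sets tested, not the log2 difference, so no sign change was possible there. The count of 0 therefore does not measure how stable the directions are. Centring each array on its median left 33.9% of all calls in accelerated aging higher at 1 year against 44.7% without it. The cause of these shifts was not tested.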
